A study of Mus musculus with 6 samples.

Results

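A set of 10 genes that lie within 1 Mb of Cd48 on mouse chromosome 1, outside the SLAM receptor family and the Ifi200 family, was described here, out of 17438 genes in the table. They are Ppox, B4galt3, Usf1, Ncstn, Copa, Pex19, Dcaf8, Pea15a, Tagln2 and Dusp23. By position alone, 59 genes of the table other than Cd48 lie in that window. The 10 genes were selected with their KO and WT levels known, so their own KO against WT differences are given as a description: no p-value of theirs is printed, and calls among them are counted only beside the share or the number called over all genes.

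The RNA came from lung ILC2s (group 2 innate lymphoid cells, tissue lymphocytes that respond to the alarm cytokine IL-33) that had been sorted, exposed to IL-33 and kept in culture. The Cd48 KO group (3 libraries, KO1 to KO3) carried the targeted allele that the labels write as B6.129S4-Cd48tm1Rsr/EpaulJ, a name that records a 129S4 donor strain on a B6 background. The WT group (3 libraries, WT1 to WT3) carried no such allele, and both groups have the strain label CB57BL/6 and the same IL-33 treatment. The design text speaks of duplicates, while the labels give 3 libraries per genotype, and all were used. The labels state neither age nor sex nor how many animals were used, and nothing says that the 3 libraries of a genotype came from separate animals, so spreads and p-values measure the spread between these libraries, which may be technical. Loss of CD48 and donor-strain sequence still linked to the allele cannot be told apart for any gene on this stretch of the chromosome. In bulk RNA, fewer cells of a type and less RNA per cell cannot be told apart either.

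The genes have unrelated roles and share a neighbourhood. Ppox encodes protoporphyrinogen oxidase, the mitochondrial enzyme before the last step of haem synthesis, B4galt3 a Golgi galactosyltransferase that builds glycan chains, and Dusp23 a small atypical dual-specificity phosphatase. Copa encodes the alpha subunit of the COPI coat of Golgi vesicles, Pex19 the receptor and chaperone for new peroxisomal membrane proteins, Ncstn the nicastrin subunit of the gamma-secretase that cleaves Notch, and Tagln2 the actin-binding protein transgelin 2. Usf1 encodes a transcription factor of the basic helix-loop-helix leucine zipper class, Dcaf8 a substrate receptor of CUL4-DDB1 ubiquitin ligases, and Pea15a a death effector domain protein that binds ERK. When a gene is targeted in stem cells of one mouse strain and bred onto another, sequence around the target from the donor strain commonly stays with the allele.

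The Cd48 transcript (GRCm38, chromosome 1, 171682009 to 171705258) stood at 4.52, 5.59 and 4.40 CPM in KO1, KO2 and KO3, against 58.2, 46.6 and 41.6 CPM in WT1, WT2 and WT3, where CPM is the count scaled to a common library size. Library totals ran from 14928623 to 27450400 estimated counts, and WT1 stood apart. Its log2 levels correlated at 0.922 to 0.932 with the other libraries, against 0.980 to 0.988 for all other pairs of libraries. In WT1 transcripts under 2 kb read high and those of at least 4 kb read low, with median log2 differences from the mean of WT2 and WT3 of 0.29 and -0.46. Results below are therefore given with all 6 libraries and without WT1. All 12 ILC2 markers had a count in every library, with summed levels of 13515 to 14349 CPM in KO and 11824 to 15863 CPM in WT. Among markers of other cells, the T cell sum was 13.7 to 15.8 CPM in KO and 25.7 to 43.8 CPM in WT (4 of 6 markers had a column and 3 a count in every library, with no column for Cd4 and Cd8a), and the epithelial sum was 9.71 to 23.0 CPM in KO and 26.5 to 70.6 CPM in WT (5 of 5 markers had a column and 2 a count in every library). The sums of B cell and macrophage markers overlapped between the groups. Those of endothelial and fibroblast markers were 40.1 to 41.9 CPM in KO and 29.1 to 39.8 CPM in WT, from 1 of 6 markers. The 2 of 6 erythroid markers with a column, which bear on the haem pathway, summed to 4.27 to 5.87 CPM in KO and 3.19 to 4.41 CPM in WT. The part of these other cells in the differences below was not tested.

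The promoters of 9 of the 10 genes were taken from RefSeq (GRCm38.p6), as windows of 250 bases before to 50 bases after the annotated start, and the table has 2 such windows for Usf1. The 4 windows below are shown because they belong to the genes with the largest proportional deficits in KO, Ppox and Dusp23, and to Ncstn and Copa, which begin beside each other on opposite strands. Capitals mark the GC box (GGGCGG) and the CCAAT box (CCAAT) on either strand, and no marked motif overlaps another. The windows are chr1:171281137-171281436 on the minus strand for Ppox, chr1:172632925-172633224 on the minus strand for Dusp23, chr1:172082700-172082999 on the minus strand for Ncstn and chr1:172082279-172082578 on the plus strand for Copa.
Ppox: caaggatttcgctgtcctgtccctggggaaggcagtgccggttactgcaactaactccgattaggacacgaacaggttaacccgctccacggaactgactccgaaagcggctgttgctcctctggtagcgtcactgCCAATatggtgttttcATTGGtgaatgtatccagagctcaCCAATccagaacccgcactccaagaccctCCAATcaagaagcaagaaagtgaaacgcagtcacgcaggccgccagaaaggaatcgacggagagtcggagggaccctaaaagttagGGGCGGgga
Dusp23: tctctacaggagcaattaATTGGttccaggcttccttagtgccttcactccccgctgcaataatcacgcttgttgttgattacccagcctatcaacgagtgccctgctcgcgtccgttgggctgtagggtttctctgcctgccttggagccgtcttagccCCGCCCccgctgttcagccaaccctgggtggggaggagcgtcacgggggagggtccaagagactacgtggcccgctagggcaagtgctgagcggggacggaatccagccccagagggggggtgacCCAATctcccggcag
Ncstn: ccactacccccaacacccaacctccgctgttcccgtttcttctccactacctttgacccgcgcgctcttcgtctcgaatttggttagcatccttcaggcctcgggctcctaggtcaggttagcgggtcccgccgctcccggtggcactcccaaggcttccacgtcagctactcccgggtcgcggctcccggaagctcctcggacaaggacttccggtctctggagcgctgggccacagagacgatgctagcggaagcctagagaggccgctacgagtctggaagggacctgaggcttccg
Copa: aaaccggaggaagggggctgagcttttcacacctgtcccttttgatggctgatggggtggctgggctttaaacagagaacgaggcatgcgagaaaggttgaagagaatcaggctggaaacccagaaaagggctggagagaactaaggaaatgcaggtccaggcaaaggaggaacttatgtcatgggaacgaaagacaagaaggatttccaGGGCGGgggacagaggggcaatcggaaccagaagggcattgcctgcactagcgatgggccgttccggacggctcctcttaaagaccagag
The Ppox window holds 4 CCAAT boxes and 1 GC box, and the Dusp23 window 2 CCAAT boxes and 1 GC box. The Copa window holds 1 GC box, and the Ncstn window held none of the letters searched. The 10 windows cover 9 of these genes, with Usf1 counted for each of its 2 windows. Of the windows, 9 hold a GC box (8 genes), against 35.7% of all 32851 windows in the RefSeq table. That table covers 27025 genes, taken without regard to whether they are expressed here, so the sets are unlike. A CCAAT box is in 3 windows (Dusp23, Pea15a and Ppox), against 37.4% of all windows. Neither the E-box (CACGTG), the motif that USF1 binds, nor TATAAA occurs in any of the 10 windows, against 7.15% and 13.6% of all windows. The GC content of the 10 windows was 54% to 72%, against a median of 52.7% over all windows. These matches describe letters in a window and say nothing of binding.

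Among the 3 enzymes, Ppox and Dusp23 were lower in all KO libraries than in any WT library, and B4galt3 overlapped between the groups. Ppox (minus strand, 171275990 to 171281186, 401 kb before Cd48) stood at 25.9, 25.5 and 28.6 CPM in KO1, KO2 and KO3, against 54.5, 48.4 and 54.1 CPM in WT1, WT2 and WT3. No KO library came near the lowest WT library, and WT1 was close to the other WT libraries for this gene. The means were 26.6 ± 1.68 CPM in KO and 52.3 ± 3.40 CPM in WT (SD, n = 3 each), so that KO had 50.9% of the WT level (log2 fold change -0.97, SE 0.13). Without WT1 the log2 fold change was -0.94 (SE 0.11).

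Dusp23 (minus strand, 172630764 to 172632962, 926 kb after Cd48) was the lowest in level of the 10 genes, with 2.20, 1.48 and 2.09 CPM in KO1, KO2 and KO3, against 10.5, 4.94 and 5.81 CPM in WT1, WT2 and WT3. The groups did not overlap, and WT1 was high among the WT libraries. These levels rest on 36, 24 and 37 estimated counts in the KO libraries, against 150.0, 74 and 162 in the WT libraries, while every other gene of the 10 had at least 414 in each library. KO had 27.3% of the WT level (log2 fold change -1.87, SE 0.36), and 35.7% without WT1 (log2 fold change -1.48, SE 0.29).

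B4galt3 (plus strand, 171270328 to 171276896, 405 kb before Cd48) stood at 32.6, 34.2 and 27.2 CPM in KO1, KO2 and KO3, against 45.0, 36.7 and 34.0 CPM in WT1, WT2 and WT3. KO2 lay above WT3, so the groups overlapped, and the highest value was that of WT1. The log2 fold change was -0.30 (SE 0.17), and -0.17 (SE 0.12) without WT1.

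**Figure D1:**
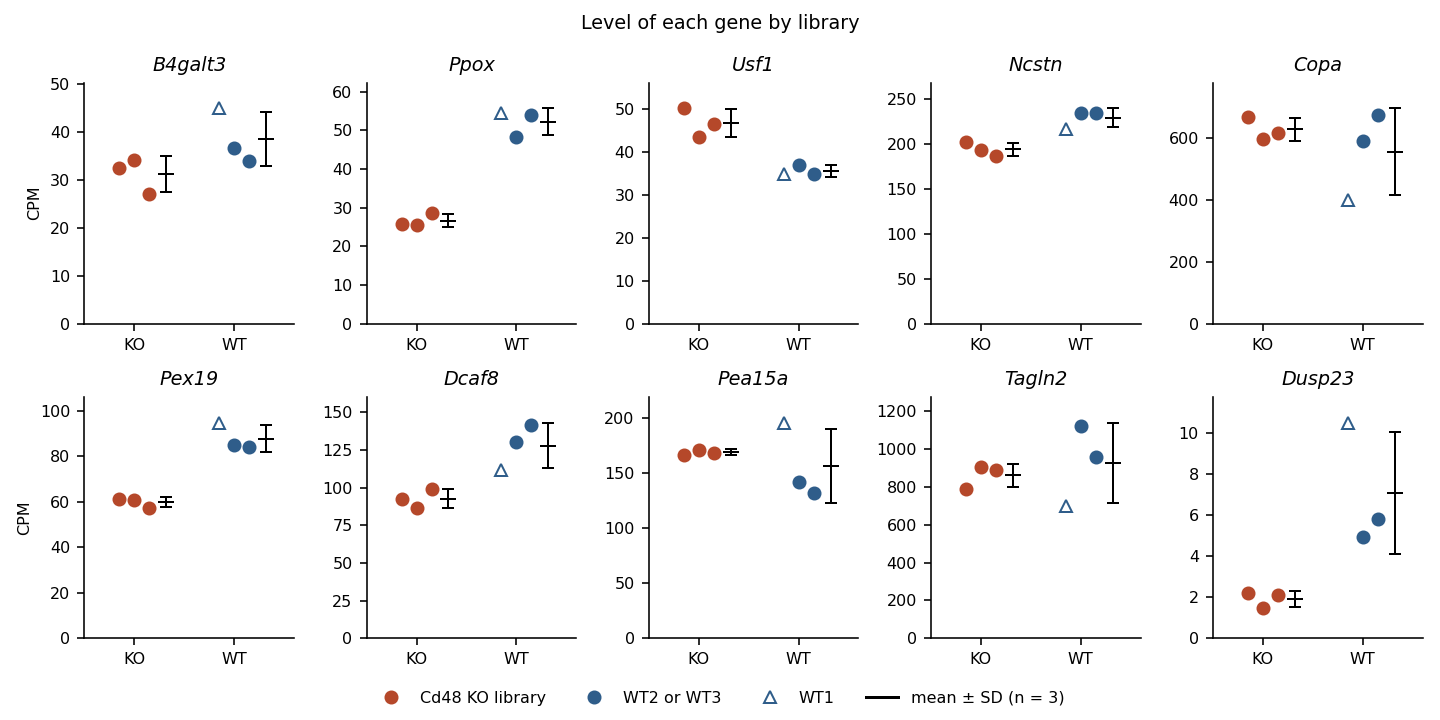
Level in CPM (vertical axes, from 0, with their own scale for each gene) of the 10 genes near Cd48 in each KO library (filled red points) and each WT library (blue, with WT1 as an open triangle), with the mean and SD of 3 libraries in black. Ppox, Ncstn, Pex19, Dcaf8 and Dusp23 lie lower in all 3 KO libraries than in all 3 WT libraries, Usf1 lies higher, and WT1 stands away from WT2 and WT3 for Copa, Pea15a, Tagln2 and Dusp23.

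Of the 4 genes for organelles, traffic and the cytoskeleton, Pex19 and Ncstn were lower in all KO libraries. Pex19 (plus strand, 172126755 to 172136493, 421 kb after Cd48) stood at 61.1, 60.9 and 57.4 CPM in KO1, KO2 and KO3, against 94.5, 84.8 and 83.9 CPM in WT1, WT2 and WT3. The gap between the groups was larger than the range within either one. The means were 59.8 ± 2.08 CPM in KO and 87.7 ± 5.92 CPM in WT (SD, n = 3 each), which put KO at 68.2% of the WT level (log2 fold change -0.55, SE 0.11). Without WT1 the log2 fold change was -0.49 (SE 0.08), and no annotated gene overlaps Pex19.

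Ncstn (minus strand, 172066013 to 172082795, 361 kb after Cd48) stood at 202, 193 and 187 CPM in KO1, KO2 and KO3, against 217, 235 and 235 CPM in WT1, WT2 and WT3. The highest KO library lay just below the lowest WT library, which was WT1. KO had 84.6% of the WT level (log2 fold change -0.24, SE 0.10), and the log2 fold change was -0.28 (SE 0.06) without WT1.

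Copa (plus strand, 172082529 to 172122330, 377 kb after Cd48) stood at 666, 595 and 616 CPM in KO1, KO2 and KO3, against 400.0, 588 and 673 CPM in WT1, WT2 and WT3. The KO libraries lay between WT2 and WT3, and WT1 alone was far lower. The log2 fold change was 0.18 (SE 0.19) with all 6 libraries and -0.0096 (SE 0.07) without WT1, so its sign rested on that library.

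Tagln2 (plus strand, 172500047 to 172507380, 795 kb after Cd48) stood at 791, 906 and 887 CPM in KO1, KO2 and KO3, against 698, 1119 and 959 CPM in WT1, WT2 and WT3. WT1 was the lowest library of all 6, while WT2 and WT3 lay above every KO library. The log2 fold change was -0.10 (SE 0.18), and -0.27 (SE 0.08) without WT1. It was 0.058 when WT2 was left out instead.

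Among the 3 regulators, Usf1 was higher and Dcaf8 lower in all KO libraries. Usf1 (plus strand, 171411313 to 171419142, 263 kb before Cd48) stood at 50.2, 43.6 and 46.6 CPM in KO1, KO2 and KO3, against 34.8, 37.1 and 34.9 CPM in WT1, WT2 and WT3. It was the member closest to Cd48 and the only one of the 10 whose 3 KO libraries all lay above its 3 WT libraries. The means were 46.8 ± 3.31 CPM in KO and 35.6 ± 1.30 CPM in WT (SD, n = 3 each), a log2 fold change of 0.39 (SE 0.12), and of 0.38 (SE 0.10) without WT1. Usf1 shares 271 bases with Tstd1 on the same strand, and held at least 98.0% of the counts of the pair in every library. How reads from the shared bases were assigned is not known.

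Dcaf8 (plus strand, 172148084 to 172197005, 443 kb after Cd48) stood at 92.5, 86.4 and 99.2 CPM in KO1, KO2 and KO3, against 112, 130.4 and 142 CPM in WT1, WT2 and WT3. Each KO library was below each WT library, with WT1 the nearest to them. KO had 72.2% of the WT level (log2 fold change -0.47, SE 0.13), and 68.0% without WT1 (log2 fold change -0.56, SE 0.08).

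Pea15a (minus strand, 172196728 to 172206804, 491 kb after Cd48) stood at 166, 171 and 168 CPM in KO1, KO2 and KO3, against 195, 142 and 132 CPM in WT1, WT2 and WT3. The KO libraries were close to each other and lay between WT1 on one side and WT2 and WT3 on the other. The log2 fold change was 0.11 (SE 0.16) with all 6 libraries and 0.30 (SE 0.07) without WT1.

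Read per kilobase of the longest annotated transcript, the order of the mean levels in KO was Tagln2 (543 CPM per kb), Copa (135), Pea15a (67.4), Ncstn (64.3), Usf1 (21.6), Pex19 (21), Dcaf8 (19.9), B4galt3 (9.61), Ppox (6.04) and Dusp23 (1.36). In WT it was Tagln2 (583 CPM per kb), Copa (119.8), Ncstn (76.0), Pea15a (62.5), Pex19 (30.8), Dcaf8 (27.6), Usf1 (16.4), Ppox (11.9), B4galt3 (11.8) and Dusp23 (5.02). The 3 KO libraries overlapped between Pea15a and Ncstn and among Usf1, Pex19 and Dcaf8. The WT libraries overlapped between Ncstn and Pea15a, between Pex19 and Dcaf8 and between Ppox and B4galt3. Usf1 was thus level with Pex19 and Dcaf8 in KO, and below both in every WT library.

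With all 6 libraries, the quasi-likelihood test of edgeR, with Benjamini-Hochberg adjustment over all tested genes, called 0 of the 10 genes at an adjusted p under 0.05, beside 0.0300% of all 13317 tested genes, and 6 of the 10 were under an unadjusted p of 0.05, beside 6.89% of all tested genes. DESeq2 called Ppox, Pex19 and Dusp23 lower, 3 of the 10, beside 0.726% of the genes it gave an adjusted p. limma-voom with sample quality weights called these 3 and Dcaf8 lower, beside 0.751% of its tested genes. Without WT1, edgeR called 6 of the 10, beside 1.82% of all genes tested. Ppox, Ncstn, Pex19, Dcaf8 and Dusp23 were the 5 called lower, beside 0.652% of all genes called lower, and Pea15a was called higher, beside 1.17% of all genes called higher. The KO and WT libraries did not overlap for 6 of the 10 genes with all 6 libraries, beside 19.3% of all genes tested, and for 8 of the 10 without WT1, beside 30.0%. Since the 10 genes were selected on the same comparison, nothing is read from these counts. When a KO library was left out as well as WT1, edgeR called 517, 73 and 65 of all tested genes without KO1, KO2 and KO3. Ppox and Dcaf8 were among them each time, and Pex19 without KO1 and without KO2. Ncstn, Pea15a and Dusp23 were among them only without KO1. Fits that left 1 WT library are not counted here. Nothing is read from these calls either, as they are of selected genes. The median log2 fold change of the 10 genes was -0.27 in both comparisons, beside medians of -0.0039 and 0.00048 over all tested genes.

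The window takes genes by position alone and not by a measured value, but it was chosen with earlier results of these data known. It holds these 10 genes among 37 that were tested with all 6 libraries and 40 without WT1, so its counts are not independent of the selection. Log2 fold changes of the 37 were positive for 18 and negative for 19, with a median of -0.01. With all 6 libraries edgeR called 0 of the 37, beside 0.0300% of all tested genes, and 12 were under an unadjusted p of 0.05, beside 6.89%. Of these 12, 6 were among the 10 selected genes. DESeq2 called 4 genes of the window, beside 0.726% of all genes, and limma-voom with sample quality weights 6, beside 0.751%. The 4 were Ppox, Pex19, Dusp23 and Ly9, and the 6 were these with Dcaf8 and Slamf1. Without WT1 edgeR called 9 of 40, beside 1.82% of all tested genes, of which 3 were higher and 6 lower in KO. These include Ppox, Ncstn, Pex19, Dcaf8, Dusp23 and Pea15a, which were selected with their KO and WT levels known. The others were the SLAM family receptor genes Ly9 and Slamf1, and Gm20045, an annotated long intergenic RNA. Without WT1, 8 of the 9 called genes lay within 0.5 Mb of Cd48, interspersed with uncalled ones. The other was Dusp23, at 926 kb.

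**Figure D2:**
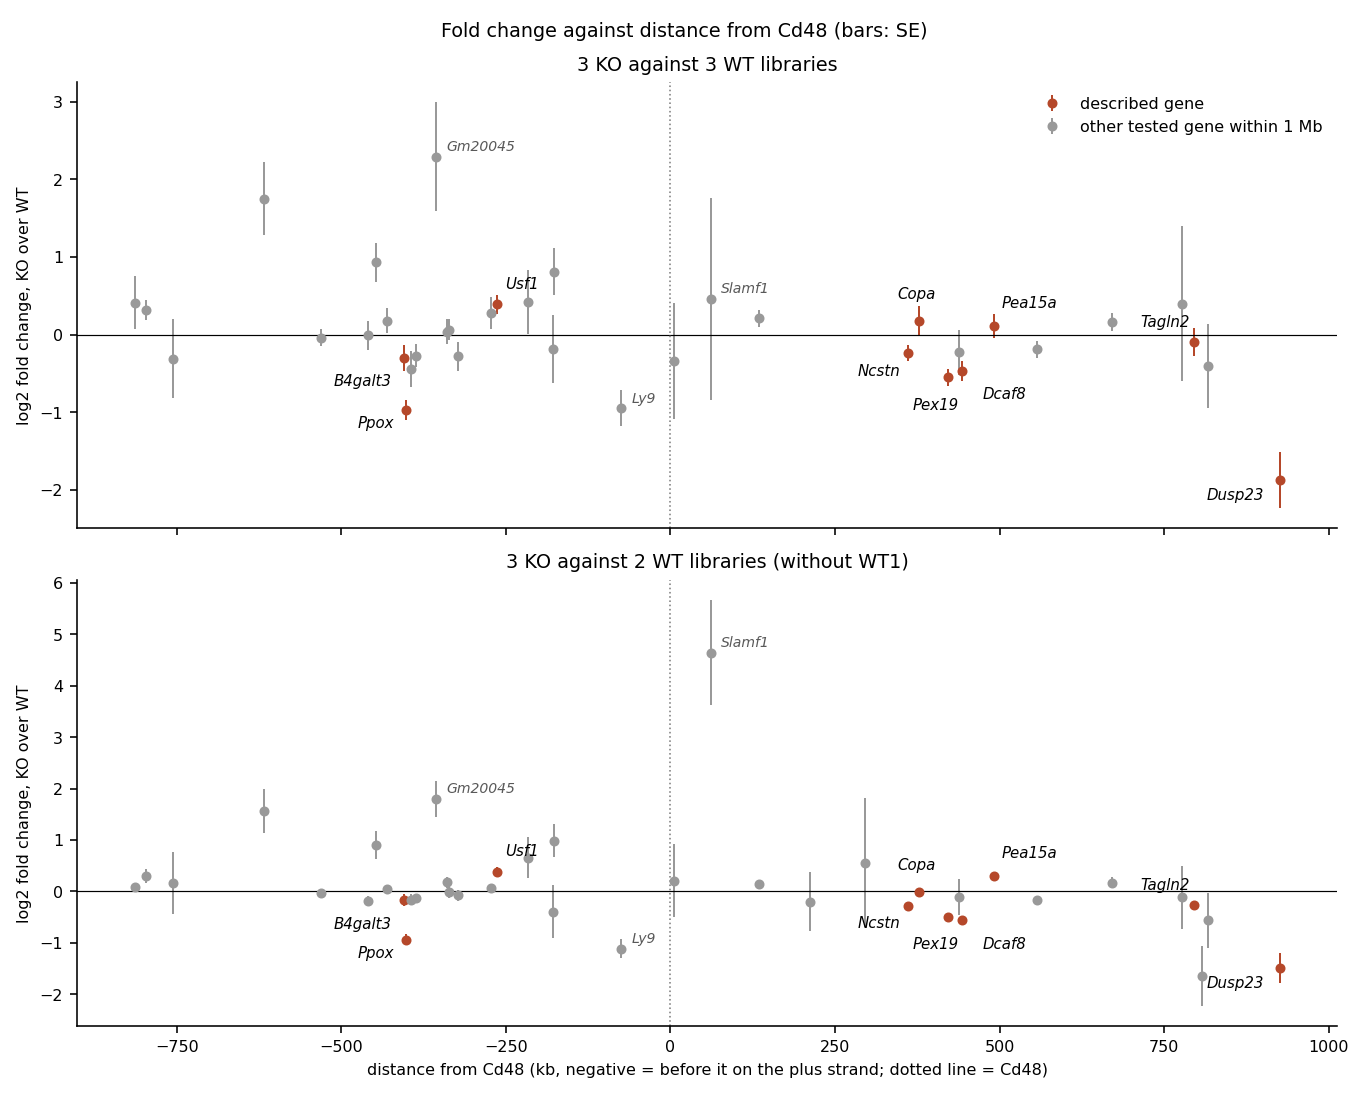
Log2 fold change of KO over WT (vertical axes, bars are SE) against distance from Cd48 in kb (horizontal axis) for the 37 genes tested with all 6 libraries (top) and the 40 tested without WT1 (bottom), with the 10 described genes in red and other genes in grey. Ppox at -0.97 and Dusp23 at -1.87 lie on either side of Cd48, and the Slamf1 value of 4.64 in the lower plot rests on a WT level at or near 0 in WT2 and WT3.

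Gm20045, 356 kb before Cd48, stood at 4.82, 4 and 3.16 CPM in KO1, KO2 and KO3, against 0.0698, 1.27 and 1.04 CPM in WT1, WT2 and WT3. All KO libraries were higher, and the log2 fold change was 2.29 (SE 0.70) with all 6 libraries and 1.80 (SE 0.35) without WT1. Ly9, 74.6 kb before Cd48, stood at 6.60, 7.19 and 8.30 CPM in KO1, KO2 and KO3, against 10.8, 17.2 and 14.8 CPM in WT1, WT2 and WT3. Every KO library was lower. Slamf1, 61.9 kb after Cd48, stood at 0.733, 0.615 and 0.847 CPM in KO1, KO2 and KO3, against 1.68, 0.0 and 0.0359 CPM in WT1, WT2 and WT3, with WT1 the only WT library above the KO libraries. Without WT1, Slamf1 passed the count filter through its KO libraries alone.

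Several genes directly beside those called without WT1 were not called, which does not show that they were unchanged. Usp21, a deubiquitinase gene next to Ppox at 394 kb before Cd48, had log2 fold changes of -0.44 (SE 0.23) with all 6 libraries and -0.16 (SE 0.11) without WT1. Ufc1 and Dedd, the tested protein-coding genes on either side of Gm20045, had values of -0.27 (SE 0.15) and 0.035 (SE 0.16) with all 6 libraries. Without WT1 these were -0.13 (SE 0.09) and 0.18 (SE 0.11). Cd84, the SLAM family gene next to Slamf1, stood at 128, 133 and 119 CPM in KO1, KO2 and KO3, against 100.1, 116 and 114 CPM in WT1, WT2 and WT3. It was not called (log2 fold change 0.21, SE 0.11, and 0.15, SE 0.07, without WT1). Alyref2, the nearest tested protein-coding gene before Ly9, had 0.81 (SE 0.30), and 0.99 (SE 0.32) without WT1. Its KO libraries all lay above its WT libraries, though it was not called. Cfap45, the last gene tested with all 6 libraries before Dusp23, had -0.40 (SE 0.54), and -0.56 (SE 0.54) without WT1. Igsf8, the next tested gene after Pea15a, had -0.19 (SE 0.11), with -0.16 (SE 0.08) without WT1. Beyond the 1 Mb limit, the nearest tested gene before the window was Uhmk1 at 1.47 Mb, with a log2 fold change of 0.13 (SE 0.46), and the nearest after it was Aim2 at 1.65 Mb, with 0.097 (SE 0.20). Further out, at 1.76 Mb after Cd48, Ifi206 of the Ifi200 family stood at 0.0 CPM in all 3 KO libraries, against 0.768, 2.87 and 2.84 CPM in WT1, WT2 and WT3. It was called lower in KO without WT1, where it passed the count filter through its WT libraries alone. Within 2 Mb of Cd48, Ifi209 of the same family was called lower with all 6 libraries, at a log2 fold change of -4.12. Hsd17b7, also in that span, was called higher without WT1, at 0.50, so calls did not end at the 1 Mb limit. Just inside the limit, Dusp23 at 926 kb and Tagln2 at 795 kb had -1.87 and -0.10.

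Of the 10 genes, 6 form 3 overlapping pairs on opposite strands. No source used here says whether reads were counted by strand, so reads from the shared bases cannot be told apart between partners. Ppox and B4galt3 meet tail to tail over 907 bases. Their summed estimated counts were whole (within 0.01) in 6 of 6 libraries, while the count of Ppox alone was whole in 0, so the deposited counts divide some reads between them. The sum of both was 58.0 ± 2.05 CPM in KO and 90.9 ± 7.56 CPM in WT (SD, n = 3 each), so the pair as a unit was lower in KO however its reads were divided. The log2 ratio of Ppox over B4galt3 was -0.34, -0.43 and 0.07 in KO1, KO2 and KO3, against 0.28, 0.40 and 0.67 in WT1, WT2 and WT3. All KO libraries had less Ppox for their B4galt3 than any WT library, with a difference in means of -0.68.

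**Figure D3:**
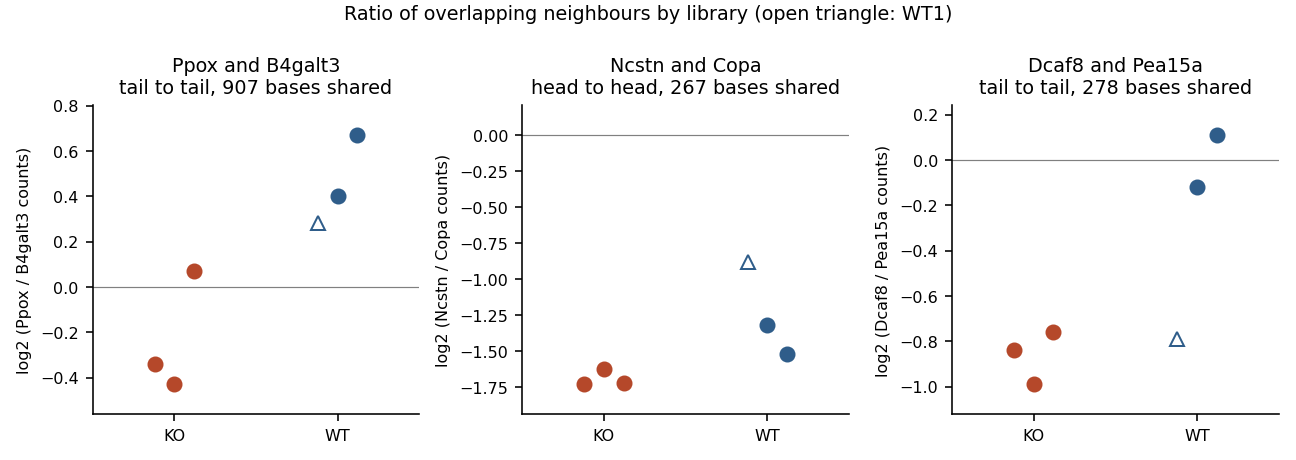
Log2 ratio of estimated counts (vertical axes) of the 3 pairs of overlapping genes in each KO library (red) and WT library (blue, WT1 as an open triangle). Ppox over B4galt3 and Ncstn over Copa are lower in all KO libraries than in all WT libraries, while for Dcaf8 over Pea15a WT1 at -0.79 lies among the KO libraries.

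Ncstn and Copa begin head to head, with annotated bodies that share 267 bases and RefSeq start sites at 172082749 and 172082529, 220 bases apart. The log2 ratio of Ncstn over Copa was -1.73, -1.62 and -1.72 in KO1, KO2 and KO3, against -0.88, -1.32 and -1.52 in WT1, WT2 and WT3. The KO libraries had the lower ratios, with a difference in means of -0.45, or -0.27 without WT1, though WT3 lay close to KO2. Whether the KO against WT values of the 2 genes differ was not tested. Dcaf8 and Pea15a meet tail to tail over 278 bases. Their log2 ratio was -0.84, -0.99 and -0.76 in KO1, KO2 and KO3, against -0.79, -0.12 and 0.11 in WT1, WT2 and WT3. WT2 and WT3 lay above all KO libraries and WT1 lay within them, and the difference in means was -0.60, or -0.86 without WT1. Neither Ncstn with Copa nor Dcaf8 with Pea15a summed to whole counts in most libraries. The count of Dcaf8 alone was whole in 5 of 6 libraries, and that of Ncstn alone in 0. Copa also shares 2770 bases with the antisense gene Gm37756, which has no column.

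The partners of these genes outside the 1 Mb window were listed by pathway or family, and 83 of 88 had a column and were tested. They are not all on other chromosomes: Psen2 and Casp8 are on chromosome 1, like Cd48. With all 6 libraries edgeR called 0 of the 83 (0 higher and 0 lower), beside 0.0300% of all tested genes, and 6 were under an unadjusted p of 0.05, beside 6.89%. Both DESeq2 and weighted limma-voom also called 0. Without WT1 edgeR called 0, beside 1.82%, and 10 were under an unadjusted p of 0.05, beside 13.7%. The median log2 fold change of the 83 was -0.023 with all 6 libraries and 0.028 without WT1.

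In haem synthesis, 0 of 7 tested genes besides Ppox were called, and their values ran from -0.34 to 0.088 with all 6 libraries (median -0.18) and from -0.26 to 0.25 without WT1 (median -0.067). Alad, which makes porphobilinogen, stood at 75.5, 86.1 and 88.8 CPM in KO1, KO2 and KO3, against 118, 90.0 and 84.6 CPM in WT1, WT2 and WT3. WT1 alone was high, and the log2 fold change of -0.23 (SE 0.16) became -0.059 (SE 0.09) without WT1. Alas1, the first enzyme of the pathway, had -0.097 (SE 0.14) and -0.20 (SE 0.09) without WT1. Ppox at -0.97 lay below all 7 in both comparisons. The 5 tested galactosyltransferase relatives of B4galt3 had a median of 0.12 (0.039 without WT1), and B4galt1, the most abundant, had 0.12 (SE 0.13). Of the 7 small atypical phosphatases related to Dusp23, 0 were called, with a median of 0.27 (0.11 without WT1). Dusp22, which acts in kinase signalling, had a log2 fold change of 0.51 (SE 0.18) and 0.51 (SE 0.17) without WT1.

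The other subunits of the complexes were also uncalled. Of 6 gamma-secretase genes besides Ncstn 0 were called (median -0.096, or -0.10 without WT1). Among them, the presenilin gene Psen2, also on chromosome 1, stood at 122, 122 and 125 CPM in KO1, KO2 and KO3, against 137, 127 and 137 CPM in WT1, WT2 and WT3. All KO libraries were lower, with a log2 fold change of -0.12 (SE 0.10). Of 8 further COPI genes 0 were called (median 0.12, or 0.043 without WT1), with Arcn1, the delta subunit, at 0.13 (SE 0.10) and Copg1, a gamma subunit, at 0.18 (SE 0.14). Copa at 0.18 lay inside their range of -0.25 to 0.27. Of 15 peroxin genes besides Pex19 0 were called (median -0.10, or 0.031 without WT1), with Pex16, a membrane protein import partner of Pex19, at -0.17 (SE 0.16). Their values ran from -0.83 to 0.47 with all 6 libraries and from -0.88 to 0.32 without WT1, and Pex19 lay within both ranges. The lowest was Pex6, an ATPase gene of peroxisomal import named after its values were seen, at -0.83 and -0.88. The calponin relative Cnn2 had -0.18 (SE 0.09), and Tagln and Cnn3 stood at 0.738 and 1.79 CPM in KO and 0.873 and 2.22 CPM in WT, far below Tagln2 in every library.

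**Figure D4:**
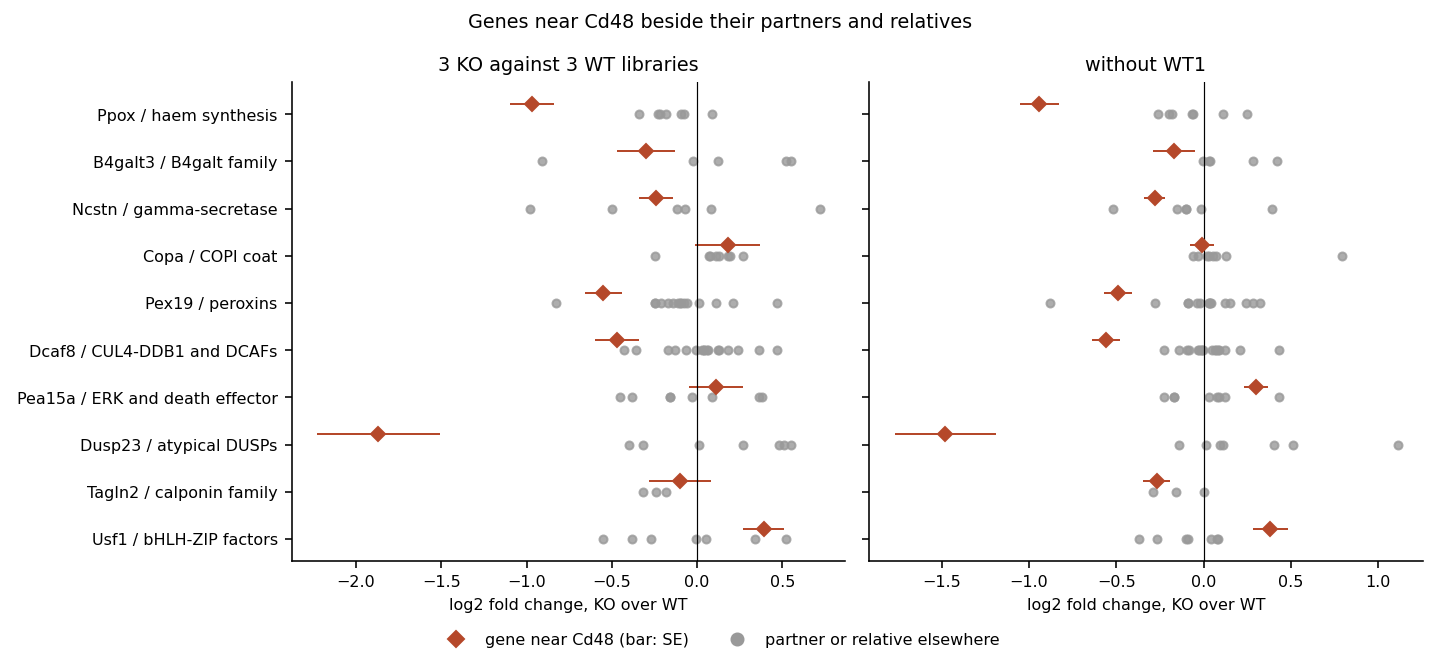
Log2 fold change of KO over WT (horizontal axes) for each described gene (red diamond, bar is SE) and for the tested partners or relatives of its pathway or family (grey points), with all 6 libraries (left) and without WT1 (right). Ppox at -0.97, Dusp23 at -1.87 and Dcaf8 at -0.47 lie below all their listed partners, and 0 of the 83 partners were called in either plot.

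Of the 17 listed genes of CUL4-DDB1 ligases and other substrate receptors, 0 were called (median 0.043, or -0.0059 without WT1). The adaptor gene Ddb1 stood at 749, 740.0 and 742 CPM in KO1, KO2 and KO3, against 487, 688 and 716 CPM in WT1, WT2 and WT3, a log2 fold change of 0.24 (SE 0.16) that was 0.087 (SE 0.05) without WT1. Dcaf8 lay below the lowest of the 17, which was -0.43, and below the lowest without WT1, -0.23. Of 8 death effector and ERK pathway genes 0 were called (median -0.096, or 0.055 without WT1). Casp8, the initiator caspase with death effector domains, had -0.032 (SE 0.12). Of 7 relatives of Usf1 among the E-box factors 0 were called (median -0.0039, or -0.088 without WT1), with Mlx at 0.049 (SE 0.11) and Tfe3 at -0.0039 (SE 0.13). Usf1 at 0.38 lay above all 7 without WT1 and within their range of -0.55 to 0.52 with all 6 libraries.

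The genes most like Usf1 and Dusp23 over the 6 libraries, by Pearson's r of log2 CPM, were on other chromosomes. For Usf1 they were Zfp944 (r = 0.995, chromosome 17), 4930404I05Rik (0.980, chromosome 16) and Alg13 (0.978, chromosome X). For Dusp23 they were Med19 (0.998, chromosome 2), Tap2 (0.996, chromosome 17) and Samm50 (0.995, chromosome 15). Med19, a Mediator subunit gene, stood at 29.0, 27.1 and 28.6 CPM in KO1, KO2 and KO3, against 36.0, 32.8 and 32.9 CPM in WT1, WT2 and WT3. Its order over the libraries followed that of Dusp23 with a smaller spread. These are the highest correlations among all tested genes, over 6 libraries that share a genotype split and WT1, and they carry no test.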

How the data were processed

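The authors deposited estimated counts per gene, not normalized, as judged from the values: totals differ between libraries and 60.2% of non-zero values are whole within 0.001. Per the labels' protocols, cDNA was made from 10 pg of RNA per sample with a low-input kit. Partek 10.0, STAR 2.7.8, DESeq2 and the mm10 build appear in the submitters' processing notes, with no role stated. The counter and its strand setting were not given in the sources used here.

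Counts were rounded and tested in R 4.3.3 with edgeR 4.0.16 (robust quasi-likelihood fit, TMM, filterByExpr with a minimum count of 10 and minimum total of 15, genotype as the only term), adjusted by Benjamini-Hochberg over all tested genes and called at an adjusted p under 0.05. SE was taken as |log2 fold change| divided by the root of the F statistic. CPM uses TMM library sizes. DESeq2 1.42.0 and limma 3.58.1 (voom with sample quality weights), other normalization and filters, a transcript length trend, the replicate number as a block, other windows and each library left out were alternatives. The fit without WT1 read in full, and a further library left out of it, were added after seeing the data.

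Of the symbols, 97.4% (16986) had a single GRCm38 position. Each library counted once. Replicates differed by more than sampling noise (chi-square per gene 4.73 to 120), which cannot show whether they came from separate animals. Named genes were all 10 members, the called genes of the window with the nearest tested gene on either side, up to 4 partners per list (called first, then most abundant), and 3 genes most like the members with the largest rise and fall. Some genes the rule takes are not reported here. The members, lists and rules were chosen with earlier results of these data known. Without molecular identifiers, PCR copies are not separate molecules. The tests were tried on simulated data.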

Additional observations from a re-analysis of the deposited data

How the results depend on the processing

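Over all genes, 4 were called with all 6 libraries, 102 by DESeq2, 100 by limma-voom with sample quality weights and 0 to 248 when each library was left out. Within 1 Mb of Cd48, 0 were called, against 4 by DESeq2, 6 by limma-voom, 0 to 9 with a library left out and 1 (Ifi209) in a window of 2 Mb. Of the 10 genes, 0 were called, against 3 by DESeq2, 4 by limma-voom and 0 to 6 with a library left out, the 6 without WT1. The cause was not tested. Without WT1, leaving out a further library gave 65 to 517 genes (248 with none further left out), 2 to 9 in the window (9), 2 to 6 of the 10 genes (6) and 0 to 2 partners (0). The 2 partners, of which Pex6 was 1, were called lower without KO1. Where 1 WT library remained, its spread was taken to equal that within KO.

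The signs of the log2 fold changes held under all alternatives for 8 of the 10 genes. Copa was at -0.0096 without WT1 and Tagln2 at 0.058 without WT2. Ppox ran from -1.08, with the transcript length trend, to -0.94. Dusp23 could not be given at a mean of at least 10 CPM, since it lies under that filter, and its low counts limit its precision. Samples with the same replicate number did not deviate together (correlations -0.0461, -0.0356 and -0.00911). The deviations are from the mean of the 3 libraries of a genotype, which in WT includes the outlying WT1. These values therefore cannot exclude that the numbers pair the libraries. With the replicate block, 0 genes were called over all genes, including 0 of the 10.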
